A study of Homo sapiens with 3 samples.

Results

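The genes described here are 36 genes of endoplasmic reticulum (ER) protein folding and of the unfolded protein response, picked by gene symbol from the 33538 genes counted in each library. They were followed through single-cell RNA sequencing of Caco-2 and HT29, 2 human colorectal carcinoma cell lines that are grown together on Transwell inserts as a laboratory model of the gut lining. Both lines were seeded at a ratio of 9 Caco-2 cells to 1 HT29 cell and were harvested on day 23. The 2 control libraries came from untreated inserts, and in the third library the apical side had received 1 ng/ml of lipopolysaccharide (LPS) of Escherichia coli O111:B4 for 24 h from day 22. Every library therefore holds both lines, from the same passages, and each line is a single tumour-derived model. No library of either line alone was analysed here.

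Proteins bound for secretion or the cell surface enter the ER through a translocation channel, lose their signal peptide, and are folded by chaperones and disulfide isomerases. Chains that fail to fold are sent out for degradation (ERAD). When unfolded chains build up, sensors of the IRE1, ATF6 and PERK arms raise the folding machinery through the factors XBP1, ATF6 and ATF4, and DDIT3 (CHOP) follows when the load lasts. Goblet cells, which fold very large mucins, rely on this machinery and carry an IRE1 form of mucosal epithelia, ERN2. The 3′ counts give the total of each transcript, so the spliced, active form of XBP1 cannot be told apart from the unspliced one.

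Short promoter elements tie some of these genes to an arm of the response. Of the 36 genes, 32 had a RefSeq promoter on GRCh38.p14, and the 250 bases before each start site were searched on both strands for 4 short motifs. The ER stress response element (ERSE, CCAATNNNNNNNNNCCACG) is the site of ATF6 with NF-Y, and ERSE-II is its shorter form, seen in capitals in the HERPUD1 line below. The core of the C/EBP-ATF response element (CARE, TGATGNAA) is the site of ATF4. ERSE was found in 6 of the 32 promoters (HSPA5, HSP90B1, CRELD2, CALR, CANX and XBP1), against 0.0806% of all 27305 promoters. ERSE-II stood in 3 (HYOU1, SDF2L1 and HERPUD1), against 0.0513% of all. CARE stood in 4 (HERPUD1, ATF3, ASNS and CHAC1), against 3.19% of all. The last motif, the UPRE core TGACGTGG of XBP1, stood in HYOU1 alone, where it overlaps an ERSE-II, against 0.667% of all promoters. Some of these elements were described from these very genes, and a match is a stretch of letters, not a measured binding site. The stretches below belong to genes whose levels are set side by side later. Each runs 5′ to 3′ on the strand of its gene, with the motif in capitals and 10 bases on either side.
HSPA5, ERSE, chr9:125241381-125241419, minus strand: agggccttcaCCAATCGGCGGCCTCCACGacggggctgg
XBP1, ERSE, chr22:28800593-28800631, minus strand: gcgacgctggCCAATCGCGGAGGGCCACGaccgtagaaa
CALR, ERSE read on the other strand, chr19:12938374-12938412, plus strand: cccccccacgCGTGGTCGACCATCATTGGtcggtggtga
HERPUD1, ERSE-II, chr16:56932015-56932045, plus strand: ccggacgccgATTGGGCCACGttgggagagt
SDF2L1, ERSE-II read on the other strand, chr22:21642104-21642134, plus strand: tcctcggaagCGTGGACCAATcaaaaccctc
ASNS, CARE, chr7:97872459-97872486, minus strand: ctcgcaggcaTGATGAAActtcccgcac
CHAC1, CARE read on the other strand, chr15:40953252-40953279, plus strand: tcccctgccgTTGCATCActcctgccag

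The libraries held 24185467 to 33893707 UMIs (unique molecules counted) in 5811 to 6838 barcodes, and 4633, 4989 and 4850 cells were kept in control 1, control 2 and the LPS library, with medians of 5459, 4103 and 3574 UMIs per cell. Cells were clustered without the 36 genes and without a wider list of other pathway genes, and clusters were named from marker genes. The clusters used below are intestinal stem cell-like cells (ISCLC), transit amplifying-like cells (TALC), enterocyte-like cells (ECLC), LYZ+ ECLC, undifferentiated HT29 (U-HT29), goblet cell-like cells (GCLC), enteroendocrine cell-like cells (EECLC) and fetal gene-expressing cells (FGEC). Names were rebuilt and may not follow the study's. The line of each cell was not determined here, and the paper conjectures it from overlap with signatures of the 2 lines. The leading genes of ISCLC held DKK1 and ANKRD1 beside LGR5 and PLA2G2A, and the paper reports the first pair as high in a TALC group. ISCLC may thus hold cells that the paper counts as TALC. TALC here were led by MCM10, UHRF1 and CLSPN. The first 4 together are called Caco-2-type cells here. They numbered 2342, 2320 and 2254 in control 1, control 2 and the LPS library, and U-HT29 numbered 621, 927 and 819. GCLC were few, with 49, 74 and 60 cells, and so were EECLC, with 66, 93 and 37. A further 6 clusters with 4737 cells, 32.7% of those kept, had no name and stayed outside the comparisons. LYZ+ ECLC carried U-HT29 markers at 327 to 401 CPM (UMI counts of a gene scaled to the same total in every group of cells) against 10.2 to 24.5 in the other Caco-2-type classes, so the cluster may hold cells of both kinds. Markers of blood, stromal and endothelial cells summed to no more than 79.7 CPM in any named class.

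As a whole, the 36 genes made up more of the RNA in GCLC than in any other named class. Their share of all UMIs was 1.25% and 1.26% in GCLC of the 2 controls and 1.40% with LPS. In U-HT29 the shares were 0.879%, 0.971% and 0.869% in control 1, control 2 and LPS. Caco-2-type cells stood at 0.620%, 0.643% and 0.629%. EECLC stood at 0.566%, 0.561% and 0.583%, and ECLC were lowest in both controls, at 0.484% and 0.517%. An unnamed cluster of 59 cells led by SST and GCG, genes of 2 gut hormones, stood at 1.24%, 1.45% and 1.18%, and was not tested. AGR2 alone is a large part of this, and without it GCLC still held 0.936%, 0.948% and 1.02%, U-HT29 0.793%, 0.865% and 0.763%, and Caco-2-type cells 0.514%, 0.518% and 0.517%. The libraries of these 3 groups did not overlap in either sum. Transcripts of ribosomal protein genes took 32.9% to 33.4% of UMIs in Caco-2-type cells, 19.3% to 20.4% in U-HT29 and 21.7% to 23.7% in GCLC. Their part in these shares was not tested.

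**Figure D1:**
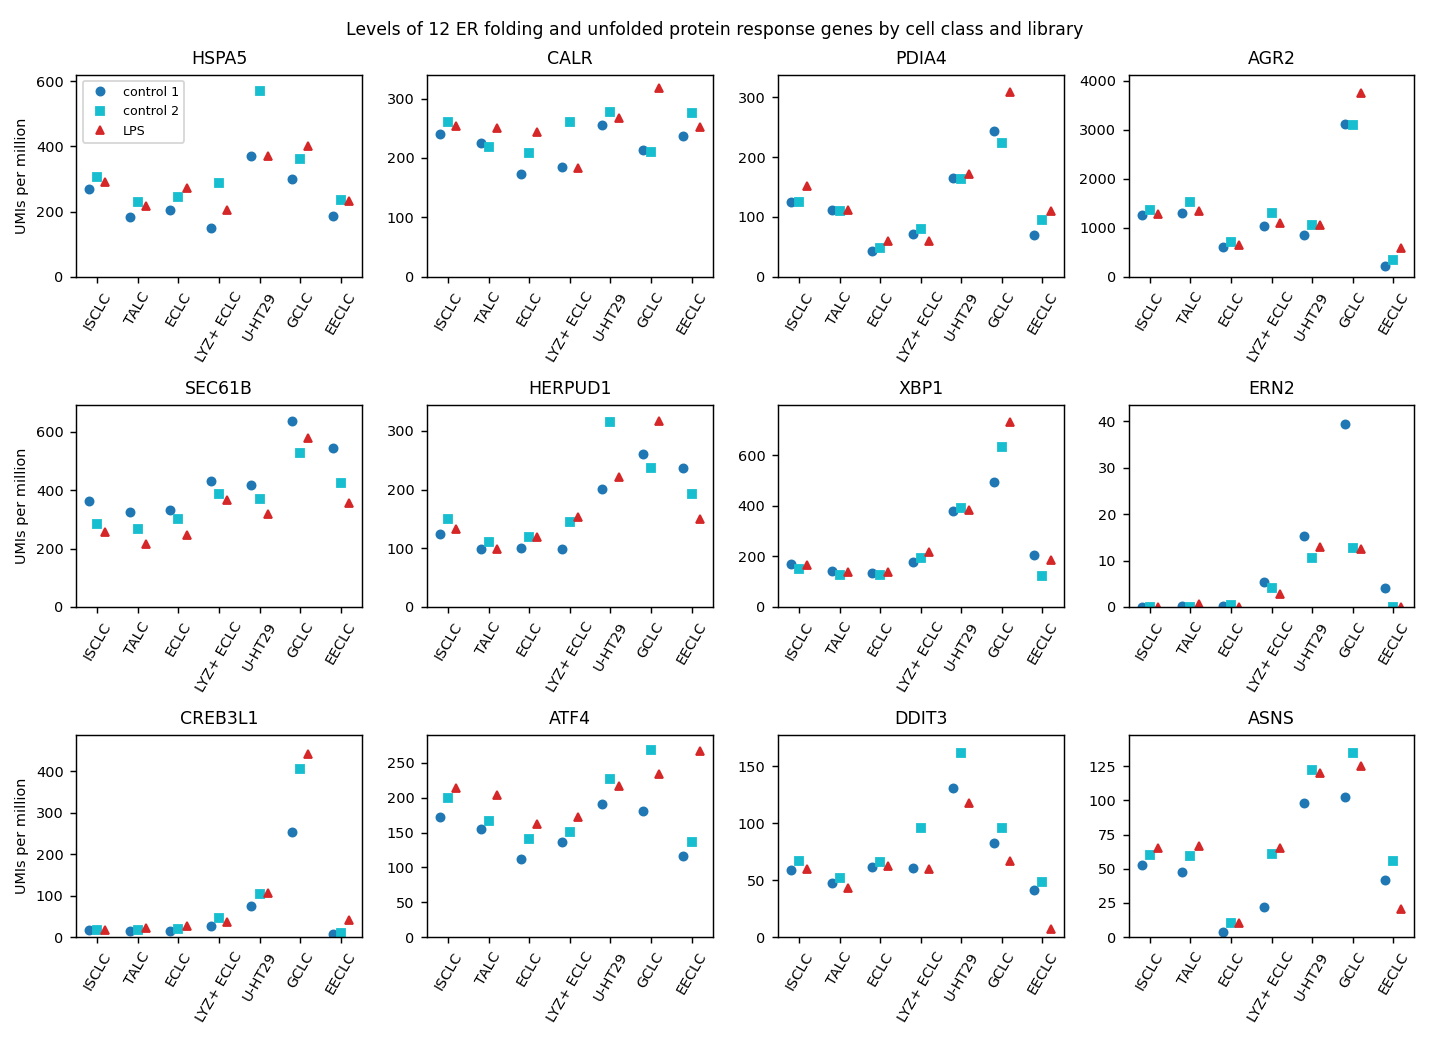
Level in CPM (vertical axis, from 0) of 12 of the genes in 7 cell classes (horizontal axis), with 1 point per library: circles for control 1, squares for control 2 and triangles for LPS. AGR2, XBP1 and CREB3L1 are highest in the GCLC of all 3 libraries, ASNS is lowest in ECLC, and LPS points mostly lie near the controls of their class.

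U-HT29 was set against Caco-2-type cells within the 2 controls to ask how these groups differ in folding capacity. The folding genes were on balance higher in U-HT29. Of the 32 genes that passed the fit's filter on low counts, 20 were higher and 1 was lower at an adjusted p under 0.05 (edgeR quasi-likelihood test, Benjamini-Hochberg over all genes). With the control library as a replicate block, since both groups of a control come from 1 insert, 22 were higher and 3 lower, the added ones being ATF4 and KDELR2 (higher) and AGR2 and PDIA6 (lower). The groups differ widely, and 64.4% of all 6157 genes tested passed, 31.5% higher and 32.9% lower. The 32 genes had a median log2 fold change of 0.64, all genes one of -0.02. The count in either direction is thus like that of other genes, and it is the direction that was uneven. The cells being compared were grouped on other genes of the same cells, which these p-values do not take into account.

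Of the 9 chaperones and co-chaperones, 6 were higher in U-HT29. HSPA5 (BiP), the main Hsp70 chaperone of the ER, stood at 370 and 570 CPM in U-HT29 of controls 1 and 2, and at 219 and 268 in Caco-2-type cells. The groups did not overlap, but control 2 held the largest gap. The log2 fold change was 0.84 ± 0.19 (SE, n = 2 libraries a group, edgeR adjusted p = 0.000904), and the edgeR adjusted p was 0.0607 when control 2 was replaced by the LPS library. DNAJB9 and DNAJC3, J-domain partners of BiP, moved further. DNAJB9 stood at 66.7 and 107 against 24.2 and 29.2 (log2 fold change 1.60 ± 0.19, edgeR adjusted p = 7.21e-07), and DNAJC3 at 108 and 137 against 39.6 and 40.5 (1.51 ± 0.16, edgeR adjusted p = 1.96e-07). HYOU1, the exchange factor of BiP, MANF and CRELD2 were also higher, by 0.69, 0.38 and 0.79 on the log2 scale, but the call of MANF was lost with no doublets removed and with control 2 replaced (edgeR adjusted p = 0.0853 and 0.0742). SDF2L1, a partner of the same complex, was lower, at 62.0 and 70.6 against 92.7 and 86.3 (-0.53 ± 0.18, edgeR adjusted p = 0.0160). That call was lost in 3 alternatives (edgeR adjusted p of 0.0616 to 0.0862), and the change was -0.33 with control 1 replaced by the LPS library. HSP90B1 and DNAJB11, the latter also a J-domain partner of BiP, gave 0.06 ± 0.21 and -0.06 ± 0.18. Of the lectin chaperones of glycoproteins, CANX was higher (0.53 ± 0.19, edgeR adjusted p = 0.0184) and CALR gave 0.15 ± 0.16. The call of CANX rests on control 2, and with the LPS library in its place the change was 0.34 (edgeR adjusted p = 0.224). The ERSE printed for HSPA5 and for CALR thus stood before a gene that differed and before one that did not pass.

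Of 6 disulfide isomerases tested, 4 were higher in U-HT29: P4HB, PDIA3, PDIA4 and AGR3. P4HB, the classical disulfide isomerase, stood at 416 and 498 in U-HT29 and at 227 in each control of Caco-2-type cells. PDIA4 stood at 166 and 163 against 93.8 and 97.5. AGR3 had the largest difference of this group, 77.4 and 107 against 21.6 and 37.7 (log2 fold change 1.54 ± 0.23, edgeR adjusted p = 9.02e-06). Its close relative AGR2, which folds mucins, did not follow. AGR2 stood at 861 and 1064 in U-HT29 and at 1064 and 1243 in Caco-2-type cells (-0.36 ± 0.20, edgeR adjusted p = 0.114, or 0.0213 with the control library as a block). Among the 5 genes of entry into the ER, SSR4, a subunit of the translocon-associated complex, was higher at 1132 and 1109 against 426 and 407 (1.33 ± 0.17, edgeR adjusted p = 1.79e-06). SEC61G, a channel subunit, was higher by 0.58 ± 0.17, whereas its partner SEC61B gave 0.20 ± 0.17 and the signal peptidase subunits SPCS1 and SPCS2 gave 0.09 and -0.25. HERPUD1, a scaffold of ERAD that the response induces, was the 1 of 3 tested degradation and retrieval genes that passed without the block, at 200 and 314 against 108 and 131 (1.00 ± 0.19, edgeR adjusted p = 0.000170).

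The 5 factors of the response tested had a median log2 fold change of 1.16 between U-HT29 and Caco-2-type cells. The 2 targets of ATF4 and CHOP tested were close, at 1.09. In the wider list the order was the other way, with medians of 0.57 for sensors and factors and 1.15 for ATF4 targets. CREB3L1 (OASIS), a membrane-bound factor of the ATF6 type that is cleaved in the Golgi, is encoded at chr11:46277662-46321409 (GRCh38). It stood at 74.1 and 105 CPM in U-HT29 and at 15.9 and 20.3 in Caco-2-type cells (log2 fold change 2.21 ± 0.23, edgeR adjusted p = 1.29e-07). XBP1 stood at 377 and 393 against 151 and 142 (1.29 ± 0.18, edgeR adjusted p = 3.37e-06). DDIT3 stood at 131 and 162 against 57.0 and 65.5 (1.16 ± 0.16, edgeR adjusted p = 4.10e-06). No library of one group reached into the other for any of these. ATF4 itself, which is controlled largely at translation, gave 0.29 ± 0.19 (edgeR adjusted p = 0.183, or 0.0486 with the block). Of its targets, ASNS (asparagine synthetase) stood at 97.7 and 122 against 34.7 and 47.8 (1.31 ± 0.18), and TRIB3, a pseudokinase induced by ATF4 and CHOP, at 253 and 283 against 125 and 150 (0.86 ± 0.21). ATF3 was higher by 0.60 ± 0.24 (edgeR adjusted p = 0.0358), a call that DESeq2 did not give (adjusted p = 0.152). The call was also lost at resolution 1 and with unnamed clusters added to Caco-2-type cells (edgeR adjusted p = 0.0981 and 0.0550).

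Another 4 genes did not pass the filter on low counts of this fit, which also held the small sums of GCLC, EECLC and FGEC. Without the filter all 36 were tested, and 24 were higher and 1 was lower. Of all 22249 genes then tested, 4255 were higher and 4153 lower. CHAC1, which degrades glutathione, stood at 26.0 and 32.0 in U-HT29 and at 8.04 and 10.2 in Caco-2-type cells. ERN2 stood at 15.4 and 10.6 against 0.430 and 0.477. EDEM1, an ERAD lectin, stood at 16.4 and 12.9 against 13.2 and 13.6. TXNDC5 stood at 1.51 to 2.70 in all 4 sums, and it shares exon bases with a read-through gene, so its count is uncertain. The same holds for DNAJB11, KDELR2 and DDIT3, each of which shares exon bases with another annotated gene of its strand.

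**Figure D2:**
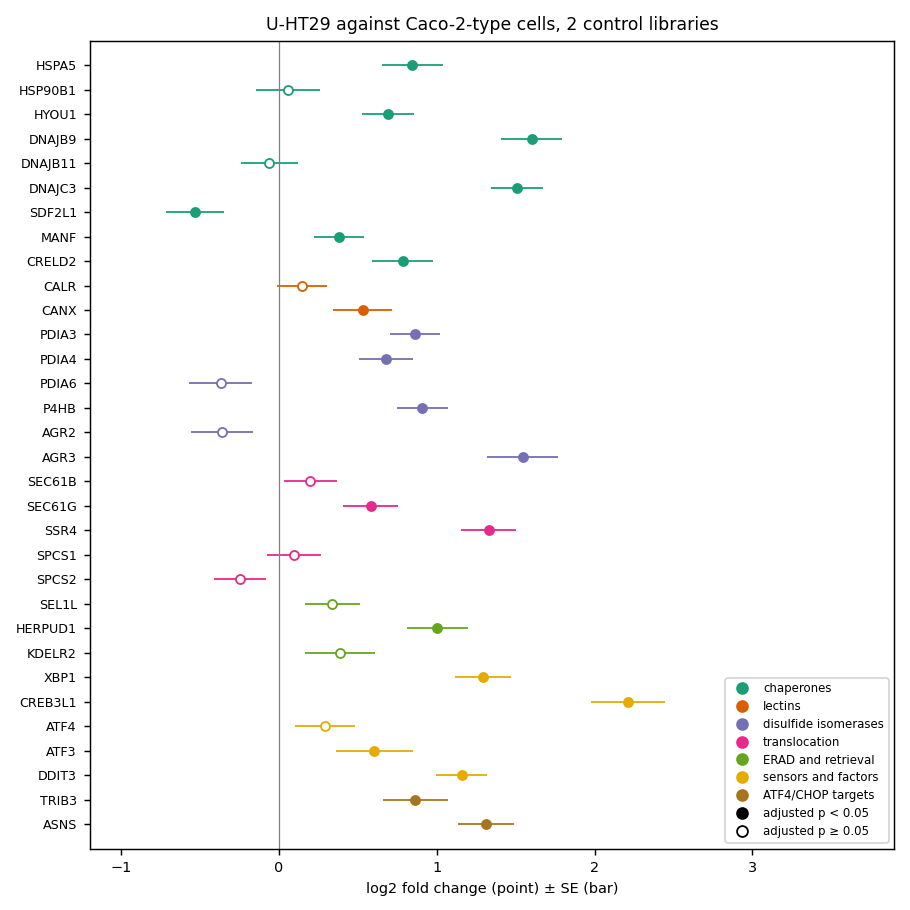
Log2 fold change of U-HT29 over Caco-2-type cells (horizontal axis) with its SE (bar) for the 32 genes tested, coloured by role and filled where the adjusted p was under 0.05. CREB3L1 lies furthest right at 2.21 and SDF2L1 is the filled point left of 0, at -0.53.

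Of 120 other pathway genes tested, 58 were higher in U-HT29 and 17 were lower, with a median of 0.35. The ATF4 target list had 20 of 30 higher and 4 lower. The genes of the list with the largest rise were NUPR1, a stress-induced chromatin factor (log2 fold change 5.67), QSOX1, a sulfhydryl oxidase (4.41), DERL1 of ERAD (2.77), SLC7A11, the cystine transporter (2.36), and VEGFA (2.27). The largest falls were in STC2 (-4.24), PHGDH of serine synthesis (-1.56), NFYB, a subunit of NF-Y (-1.26), CREB3L2 (-1.16) and DNAJC1 (-0.90). ATF4 targets therefore stood at both ends. Genes of dissociation and cytosolic heat shock, taken as a sign of handling, summed to 2615 and 2587 CPM in U-HT29 and to 1818 to 2387 in the Caco-2-type classes of the controls. Their part in these differences was not tested.

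GCLC are the mucin-making cells, which the paper presumes to derive from HT29. They were compared with U-HT29 to ask which folding genes go with the goblet state. Of the 32 genes tested, 4 were higher in GCLC and 1 was lower. Over all genes 8.56% passed, 3.77% higher and 4.79% lower, and the median was 0.09 over the 32 genes and -0.02 over all. The calls thus lay in a few genes, and whether the rest of the set shifted by less was not tested. In counts simulated with known changes, this fit recovered 37% of genes changed by 1 on the log2 scale. With the control library as a replicate block 9 of the 32 passed, 7 higher and 2 lower, the added ones being PDIA3, XBP1, SEC61B (higher) and DDIT3 (lower).

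AGR2 and CREB3L1 had the largest of the changes that passed. AGR2 stood at 3114 and 3106 CPM in GCLC against 861 and 1064 in U-HT29, and at 3755 against 1051 with LPS (log2 fold change in the controls 1.68 ± 0.20, edgeR adjusted p = 1.82e-05). AGR3 stood at 194 and 201 against 77.4 and 107 (1.09 ± 0.28, edgeR adjusted p = 0.0172). CREB3L1 stood at 254 and 406 against 74.1 and 105, and at 442 against 105 with LPS (1.86 ± 0.25, edgeR adjusted p = 7.00e-05). All 3 libraries of GCLC lay above all 3 of U-HT29 for these genes. XBP1 stood at 494 and 633 against 377 and 393, also without overlap (0.53 ± 0.19, edgeR adjusted p = 0.0877, or 0.0267 with the block). ATF3, the fourth gene called higher, rests on 1 library. It stood at 181 and 63.9 in GCLC against 52.3 and 40.1 (1.39 ± 0.34, edgeR adjusted p = 0.0116), and with control 1 replaced by the LPS library the edgeR adjusted p was 0.451.

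The calls as reported did not extend from AGR2 to the chaperones. HSPA5 stood at 300 and 361 in GCLC and at 370 and 570 in U-HT29 (-0.52 ± 0.22, edgeR adjusted p = 0.164), and none of the 9 chaperones passed as reported. MANF (0.46) was called higher with the LPS library added (0.68, edgeR adjusted p = 0.0114) and with control 2 replaced (0.87, edgeR adjusted p = 0.0289). Without the filter on low counts, HSPA5 and DNAJB9 were called lower (edgeR adjusted p = 0.00329 and 0.0411). HERPUD1 gave -0.06 ± 0.22 and P4HB -0.16 ± 0.18. PDIA4 gave 0.49 (edgeR adjusted p = 0.157). It was called higher with the LPS library added (0.63, edgeR adjusted p = 0.0191) and with no doublets removed (0.65, edgeR adjusted p = 0.0430). PDIA3, XBP1 and SEC61B were also called higher in alternatives other than the block. TRIB3 was lower in GCLC, at 92.3 and 176 against 253 and 283 (-1.02 ± 0.27, edgeR adjusted p = 0.0192), while ASNS was at 102 and 134 against 97.7 and 122 (0.09 ± 0.24). DDIT3 was at 82.4 and 95.9 against 131 and 162 (-0.73 ± 0.23, edgeR adjusted p = 0.0576, or 0.0205 with the block). Of the 120 other pathway genes 9 were higher and 4 lower. The rises were largest in PDIA5, a disulfide isomerase (1.72), SEC11C of the signal peptidase (1.62), RCN1 (1.61), EDEM3 of ERAD (1.47) and SRPRB, a subunit of the signal recognition particle receptor (1.16). The 4 that fell were ERO1A, the oxidase that feeds disulfide isomerases (-1.79), CEBPB (-0.94), AARS (-0.92) and GDF15 (-0.87). Of the ATF4 target list none was higher and 2 of 30 were lower.

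The share of cells with a UMI was compared after each cell had been thinned to 1500 UMIs. XBP1 was seen in 65.4% ± 2.7 of GCLC and 46.3% ± 3.8 of U-HT29 (SD over 2 controls), and without thinning in 93.9% and 81.0%. CREB3L1 was seen in 36.9% ± 8.9 of GCLC and 12.9% ± 3.7 of U-HT29, and without thinning in 69.1% and 33.8%. In TALC, a Caco-2-type class, CREB3L1 was seen in 2.12% ± 0.38 of thinned cells, with more UMIs per cell (medians of 7324 and 5885 against 5015 and 3573 in GCLC). ERN2 was sparse, at 3.74% ± 3.37 of GCLC and 1.94% ± 0.91 of U-HT29, or 13.3% and 6.69% without thinning. Its 16 UMIs in the GCLC of the controls do not separate these 2 classes. No UMI of ERN2 was counted in the 2839 ISCLC of the 3 libraries, a count that leaves room for at most 0.106% of cells with a UMI (3 cells, counting error only). At this depth that limits the cells with a UMI, not the cells that express ERN2.

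GCLC and EECLC are 2 secretory kinds with different cargo, mucins against hormones, and they differed across most of the folding machinery. Of the 32 genes tested, 20 were higher in GCLC and 1 was lower. Over all genes 32.5% passed, 18.8% higher and 13.7% lower. The 32 genes had a median log2 fold change of 1.02, all genes one of 0.04. The EECLC had fewer UMIs (medians of 2879 and 2154 per cell in the controls), and their dissociation genes summed to 3369 and 3010 CPM against 2906 and 2476 in GCLC. Their part in the difference was not tested.

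**Figure D3:**
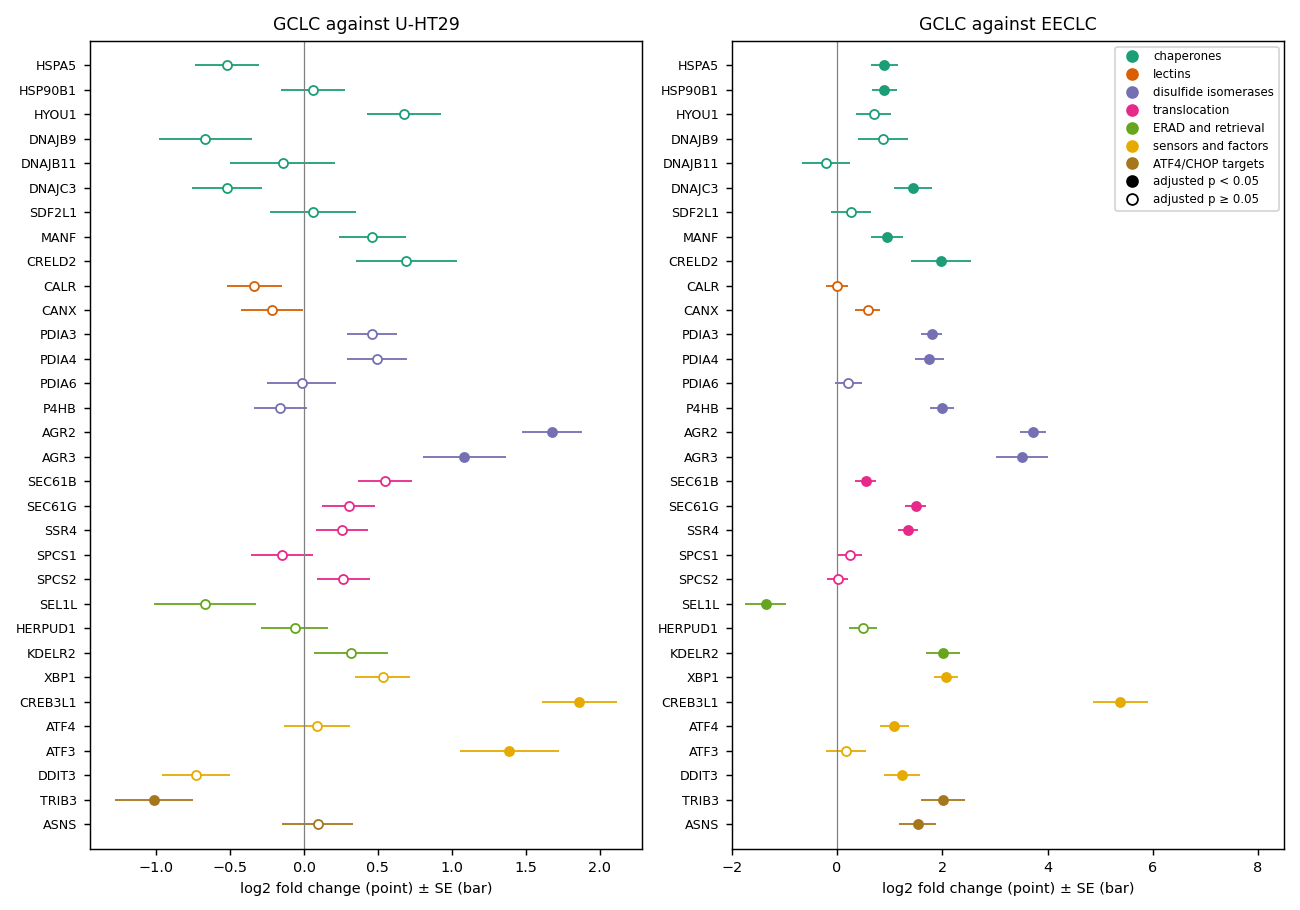
Log2 fold change (horizontal axis) with its SE (bar) of GCLC over U-HT29 (left) and of GCLC over EECLC (right) for the 32 genes tested in the 2 controls, coloured by role and filled where the adjusted p was under 0.05. On the left 5 points are filled, with CREB3L1 at 1.86 and TRIB3 at -1.02 as the ends among them, and on the right 21, from SEL1L at -1.36 to CREB3L1 at 5.38. The panels share the GCLC libraries and have different horizontal scales, and EECLC leave out the unnamed cluster led by SST and GCG.

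CREB3L1 was nearly silent in EECLC, with 8.31 and 10.5 CPM in the controls against 254 and 406 in GCLC (5.38 ± 0.52, edgeR adjusted p = 5.02e-07). It rested on 5 UMIs in EECLC. AGR2 stood at 3114 and 3106 in GCLC and at 212 and 348 in EECLC (3.72 ± 0.24, edgeR adjusted p = 3.74e-09). XBP1 stood at 494 and 633 in GCLC and at 204 and 122 in EECLC (2.07 ± 0.23, edgeR adjusted p = 2.40e-06). Of the 6 disulfide isomerases tested 5 were higher in GCLC, with PDIA6 at 0.22 ± 0.26 as the exception. PDIA4 stood at 244 and 224 in GCLC and at 70.6 and 94.1 in EECLC (1.76 ± 0.27, edgeR adjusted p = 8.95e-05). KDELR2, the receptor that returns ER proteins from the Golgi, stood at 244 and 451 against 66.5 and 136 (2.01 ± 0.32, edgeR adjusted p = 0.000130).

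Of the 9 chaperones 5 passed. HSPA5 stood at 300 and 361 in GCLC and at 187 and 237 in EECLC (0.90 ± 0.26, edgeR adjusted p = 0.0120, or 0.0512 at resolution 1). The calls of HSP90B1, MANF and CRELD2 were also lost in some alternatives (edgeR adjusted p of 0.0540 to 0.0919). CALR did not separate the 2 kinds, at 214 and 211 against 237 and 275 (-0.01 ± 0.21). CANX, the other lectin, gave 0.58 (edgeR adjusted p = 0.0756, or 0.0276 with the block) and was called higher in other alternatives too. SEC61G and SSR4 were higher by 1.49 ± 0.20 and 1.35 ± 0.19, and SEC61B by 0.54 ± 0.20 (edgeR adjusted p = 0.0429), though that call was lost in 5 alternatives, DESeq2 among them (adjusted p of 0.0785 to 0.123). ATF4 was called higher at 181 and 268 against 116 and 136 (1.09 ± 0.28, edgeR adjusted p = 0.00663), but its edgeR adjusted p was 0.109 and 0.478 with control 1 or control 2 replaced by the LPS library. SEL1L, the partner of the ERAD ligase HRD1, was the gene lower in GCLC, at 29.7 and 32.0 against 99.7 and 90.6 (-1.36 ± 0.39, edgeR adjusted p = 0.0126). That call too was lost on either replacement (edgeR adjusted p = 0.388 and 0.402), and SEL1L stood at 34.2 in the 37 EECLC of the LPS library. Of the 120 other pathway genes 61 were higher and 3 lower. The largest rises were in SLC7A11 (3.87), QSOX1 (3.85), KDELR3 (3.83), DERL1 (3.35) and SEC24D of COPII vesicles (3.20), and the falls were in TMX1 (-1.74), NFYB (-1.32) and RCN2 (-0.86).

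Within the Caco-2-type cells, ECLC were compared with TALC to follow the genes from dividing to absorptive cells. Here the set split. All 36 genes could be tested, and 7 were higher and 12 lower in ECLC. Over all 12916 genes 42.8% passed, 22.4% higher and 20.4% lower, and the medians were -0.05 over the 36 genes and 0.02 over all. The control library as a block gave 12 higher and 14 lower. ECLC had fewer UMIs per cell (medians of 5187 and 4025 against 7324 and 5885), and ribosomal transcripts took 32.4% to 33.4% in ECLC and 32.9% to 34.2% in TALC.

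The ATF4 targets fell furthest. ASNS stood at 3.65 and 10.6 CPM in ECLC and at 47.4 and 59.6 in TALC, and at 10.1 against 66.5 with LPS (log2 fold change in the controls -2.78 ± 0.30, edgeR adjusted p = 6.89e-09). CHAC1 stood at 1.62 and 1.61 against 8.68 and 12.3 (-2.39 ± 0.42, edgeR adjusted p = 2.18e-05). These are the genes whose CARE stretches are printed above. TRIB3 did not follow them, at 100 and 129 against 138 and 161 (-0.15 ± 0.19). ATF4 gave -0.12 ± 0.17, whereas DDIT3 and ATF3 were higher in ECLC, by 0.60 ± 0.17 (edgeR adjusted p = 0.00583) and 0.93 ± 0.25 (edgeR adjusted p = 0.00332). ATF3 also carries a CARE, and so does HERPUD1, which gave 0.30 (edgeR adjusted p = 0.202, or 0.0457 with the block). The call of DDIT3 was lost in 3 of the alternatives, with edgeR adjusted p of 0.0514 to 0.143. All 3 regrouped the cells. In 2 of them, with no doublets removed and with the 36 genes and the wider list among the clustering genes, TALC took in another cluster. That cluster had DKK1 and ANKRD1 among its leading genes and held 3141 and 2371 cells. TALC as reported number 1609 cells, and with log normalization TALC numbered 2969.

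Folding enzymes went both ways. PDIA4 stood at 43.0 and 48.6 in ECLC against 112 and 110 in TALC (-1.04 ± 0.16, edgeR adjusted p = 3.91e-06), and AGR2 at 610 and 718 against 1302 and 1530 (-0.85 ± 0.18, edgeR adjusted p = 0.000192). AGR3, PDIA6 and TXNDC5 were also lower. The call of PDIA6 was lost in 7 alternatives (adjusted p of 0.0665 to 0.350). That of TXNDC5 was lost with DESeq2 (adjusted p = 0.0736) and with control 2 replaced, where its change went from -1.60 to -0.94 (edgeR adjusted p = 0.253). P4HB, which is also a subunit of the microsomal triglyceride transfer protein that loads lipoproteins, was the isomerase that was higher, at 270 and 271 against 198 and 184 (0.74 ± 0.15, edgeR adjusted p = 0.000160). Among the chaperones, HSP90B1, SDF2L1, MANF and CRELD2 were lower by 0.58 to 0.90 in size. HSP90B1 lost its call in 3 alternatives (edgeR adjusted p of 0.0501 to 0.100) and CRELD2 with log normalization, where its change went from -0.90 to -0.45 (edgeR adjusted p = 0.198). DNAJB9 was higher, at 31.7 and 39.6 against 14.03 and 15.5 (1.503 ± 0.22, edgeR adjusted p = 1.79e-06), and so was DNAJC3 (0.77 ± 0.19, edgeR adjusted p = 0.00117). These partners of BiP thus rose beside an HSPA5 of 204 and 244 against 185 and 230 (0.35 ± 0.20, edgeR adjusted p = 0.164, or 0.00982 with the block). The fit scales the sums by TMM and CPM does not, so the change of HSPA5 in the fit lies above that of its printed levels. DNAJB11, another J-domain partner, did not rise and gave -0.43 (edgeR adjusted p = 0.0707, or 0.0302 with the block). It was called lower in other alternatives too, log normalization among them (edgeR adjusted p = 0.00527). XBP1 gave 0.18 ± 0.16, CREB3L1 0.38 ± 0.27, CALR 0.01 ± 0.15 and HERPUD1 0.30 ± 0.18 (edgeR adjusted p = 0.0457 with the block). SEC61G and EDEM1 were higher by 0.47 and 0.64, and SPCS2 was lower by 0.68 in size. The call of SEC61G was lost in 3 alternatives (adjusted p of 0.0513 to 0.173) and that of EDEM1 in 4 (adjusted p of 0.0570 to 0.114), DESeq2 being among them for each gene.

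**Figure D4:**
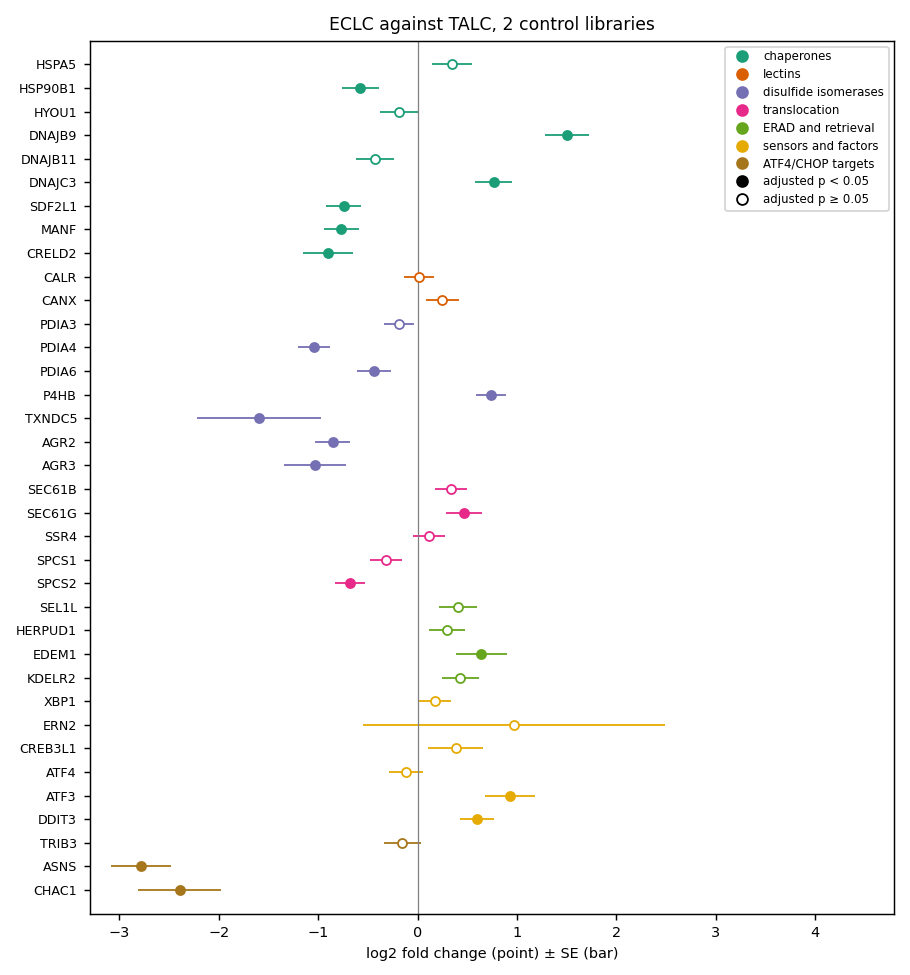
Log2 fold change of ECLC over TALC (horizontal axis) with its SE (bar) for all 36 genes in the 2 controls, coloured by role and filled where the adjusted p was under 0.05. ASNS (-2.78) and CHAC1 (-2.39) lie furthest left and DNAJB9 (1.503) is the filled point furthest right; the long bar of ERN2 reflects 1 to 2 UMIs in each class.

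The wider list split by function in the same comparison. Of the 33 other ATF4 targets tested, 27 were lower and 0 higher in ECLC, with a median of -1.18. Of the 17 genes of retrieval and vesicles 9 were higher and 1 lower. Over the 139 genes of the list 26 were higher and 40 lower. The largest falls were in PSAT1 of serine synthesis (-3.89), ALDH1L2 and MTHFD2 of mitochondrial folate metabolism (-3.65 and -2.53), VLDLR (-3.09) and RCN1 (-2.65). The largest rises were in CREB3L3, a liver and gut relative of ATF6 (2.91), ERO1A (1.66), CREBRF (1.61), OS9, an ERAD lectin (1.32), and TXNDC11 (1.17). The 10 TALC markers summed to 997 and 1077 CPM in TALC and to 104 and 110 in ECLC. They hold genes of dividing cells such as MKI67 and TOP2A, but also GAL, DKK1 and ANKRD1, so the sum is not one of division alone. Their part in these differences was not tested.

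LPS was compared with the controls to ask whether the treatment moved the response. It did not do so detectably. In all kept cells, 0 of the 36 genes passed the edgeR test, against 0.105% of all 16135 genes (11 or 0.0682% higher, and 6 or 0.0372% lower), and 3 of the 36, all lower, had an unadjusted p under 0.05. DESeq2 called 0 of the 36 as well. In Caco-2-type cells 0 of 36 passed, with 0 of all 14314 genes called (0% of those tested, with 176 higher and 234 lower at an unadjusted p under 0.05, and 1 called by DESeq2), and the same 3 had an unadjusted p under 0.05. In U-HT29 0 of 36 passed, with 0.021% of all genes called, and none of the 36 had an unadjusted p under 0.05. The difference of the LPS effect between U-HT29 and Caco-2-type cells passed for 0 of 36 genes and for 0% of all genes (177 higher and 121 lower at an unadjusted p under 0.05, 0 called by DESeq2), again with no unadjusted p under 0.05 among the 36. DESeq2 called 0 of the 36 in each of these fits too. The fits by cell group had no term for the library, which the cell groups share. With 1 LPS library, the spread within the treatment is taken from the controls. In simulated counts, 56%, 50% and 40% of genes changed by 1 on the log2 scale were recovered in all kept cells, Caco-2-type cells and U-HT29. Changes of that size can thus go unseen.

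The 3 genes at an unadjusted p under 0.05 were ATF3, SDF2L1 and SEC61B. In all kept cells ATF3 stood at 39.1 and 27.1 CPM in the controls and at 22.5 with LPS (log2 fold change -0.64 ± 0.20, edgeR adjusted p = 0.916). SDF2L1 stood at 77.3 and 74.6 against 58.3 (-0.46 ± 0.15, edgeR adjusted p = 0.956), and SEC61B at 359 and 300 against 258 (-0.43 ± 0.17, edgeR adjusted p = 0.956). The LPS value was the lowest of the 3 libraries for each. The genes that define the response lay within or close to the span of the controls. HSPA5 stood at 253 and 309 against 284 with LPS (-0.06 ± 0.16), XBP1 at 184 and 187 against 197 (0.01 ± 0.15), and DDIT3 at 69.1 and 81.8 against 65.4 (-0.28 ± 0.15). ATF4 stood at 153 and 181 against 196 (0.15 ± 0.15), CREB3L1 at 25.7 and 39.3 against 41.5 (0.28 ± 0.18) and ASNS at 40.2 and 55.1 against 55.2 (0.14 ± 0.16). In U-HT29, HSPA5 with LPS (372) matched control 1 (370) and lay under control 2 (570), with a log2 fold change of -0.40 ± 0.24. Of the 140 other pathway genes 0 passed in any of these LPS comparisons. Genes of the interferon response (IFIT1, IFIT2, IFIT3, MX1, MX2, OAS2, RSAD2 and IFI44L) were among the 11 called higher in all kept cells, with log2 fold changes of 1.07 to 3.58, so the LPS library was not without differences. SST, which leads an unnamed cluster, was also called higher. Of the 6 called lower, CPE, CLPS and TUBA1A are among the leading genes of an EECLC cluster, and FABP7, PTN and XAGE3 among those of FGEC. EECLC numbered 66 and 93 cells in the controls and 37 with LPS, and FGEC 21, 44 and 8, so in all kept cells a change in the mix of cells and one within cells cannot be told apart.

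**Figure D5:**
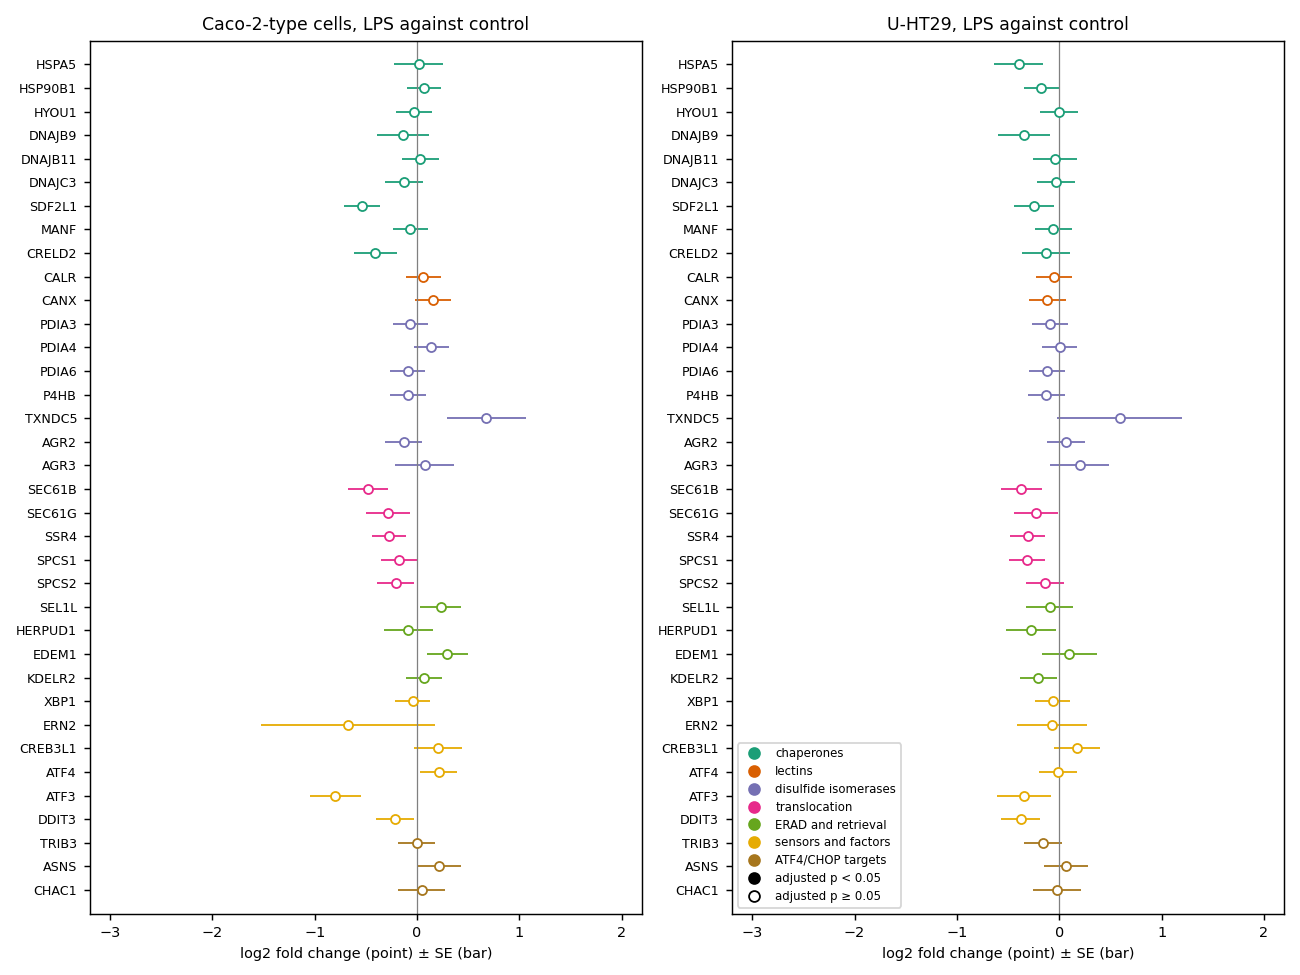
Log2 fold change of LPS over control (horizontal axis) with its SE (bar) for the 36 genes in Caco-2-type cells (left) and U-HT29 (right), coloured by role. No point is filled, since no adjusted p was under 0.05; ATF3 in Caco-2-type cells lies furthest from 0, at -0.80.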

How the data were processed

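Single cells of the 3 libraries were counted by the authors with Cell Ranger (version 3.1.0 per the file headers, GRCh38), and the deposited values are raw UMI counts per gene and barcode, not normalized. The paper's list of resources names a different version of Cell Ranger. The aligner settings were not given in the sources used here. Cells were kept at the study's minimums of UMIs and genes for each control; the LPS library, for which none is stated, was kept at those of control 2 (1500 UMIs, 700 genes). Cells over 20% mitochondrial UMIs were dropped. Scrublet's automatic threshold marked 0, 0 and 1 cells and so had not worked, and the 296, 318 and 310 cells with the highest scores (6%) were removed instead. The libraries shared 5 to 7 barcodes in pairs, none with identical counts.

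SCTransform (sctransform 0.4.2), Seurat 5.3.0 anchor integration on 3000 genes and Leiden clustering (resolution 0.5) were run without the 36 genes and the wider pathway list. Clusters were named from at least 3 raised markers. The members, lists and named-gene rules were chosen with earlier results of these data known. Any of the 36 genes could be named, and of the wider list the 5 genes past the threshold with the largest change in each direction.

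UMI counts were summed per cell group and library and tested with edgeR (TMM, filterByExpr, quasi-likelihood, Benjamini-Hochberg over all genes, threshold 0.05). A log2 fold change is that of the fit, which scales the sums by TMM. Levels are CPM, computed here from the summed counts without that scaling, so a change can differ from the ratio of the printed levels. Groups of 1 control come from the same insert and are paired by it, so a fit with the control library as a block was run beside the unblocked one. The 2 controls were separate inserts seeded from the same stocks, so p-values cover the spread between inserts. Gene positions are those of GENCODE on GRCh38. The scripts were tested on simulated counts with known changes. Over the comparisons simulated, 24% to 83% of genes changed by 1 on the log2 scale were recovered, and 73% to 92% of those changed by 2. Of all calls in these runs, 3% to 12.5% were false. Alternatives included DESeq2, other size factors, no filter, left-out libraries and other clusterings. Fits with 1 control replaced by the LPS library, without LYZ+ ECLC, or with the unnamed clusters added were chosen after seeing the data.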

Additional observations from a re-analysis of the deposited data

How the results depend on the processing

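Of the genes called among the 36, 16 of 21 (U-HT29 against Caco-2-type cells), 4 of 5 (GCLC against U-HT29), 14 of 21 (GCLC against EECLC) and 12 of 19 (ECLC against TALC) kept their call under every alternative that tested them, and the LPS comparisons called 0 of the 36 under each. GCLC against U-HT29 depended most on the setting, with 5 of the 32 genes passing as reported, 9 with the control library as a replicate block, 11 of the 31 then tested with the LPS library added and 8 of 36 without the filter on low counts. The block, with groups paired by their control library, gave 25 genes in U-HT29 against Caco-2-type cells, 22 in GCLC against EECLC and 26 in ECLC against TALC; all of its changes were gains. The LPS library was not paired with either control, since the labels give no pairing between them. Both cell groups of a library come from 1 insert, but the LPS fits by cell group had no term for the library. A fit of the difference of the LPS effects with the library as a block was not run. Leaving out 1 control leaves no test for the cell groups, so it was tested with the LPS library in its place, which gave 17 to 21, 6, 16 to 21 and 15 to 20 genes in the 4 comparisons. Log normalization gave no GCLC cluster and so no value there.

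Over all genes, U-HT29 against Caco-2-type cells gave 3963 calls as reported, 8408 without the filter and 7711 with log normalization. GCLC against U-HT29 gave 527, and 960 without the filter. GCLC against EECLC gave 2001, and 1070 to 1458 with a control replaced. LPS in all kept cells gave 17 calls, 6 with DESeq2, 11 with no doublets removed and 46 without the filter. In Caco-2-type cells it gave 0, 1 with DESeq2 and 8 without the filter. In U-HT29 it gave 3, 7 with log normalization, 6 with LPS cells at the minimums of control 1, 1 with no doublets removed and 29 without the filter. The difference of the LPS effects gave 0, and 5 without the filter. Without a filter more genes are tested. The cause of the other changes was not tested.

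The signs that turned belong to genes that did not pass. In ECLC against TALC, ERN2 (0.97 on the log2 scale) went to -0.26 with the LPS library added and to -0.54 and -1.12 with control 1 or 2 replaced, and CALR (0.01) to -0.024 without the filter and -0.16 with log normalization. In GCLC against EECLC, CALR (-0.01) went to 0.14 with the LPS library added and to 0.14 and 0.33 with control 1 or 2 replaced. In GCLC against U-HT29, ASNS (0.09) went to -0.16 without the filter and -0.019 at resolution 1, and ATF4 (0.09) to -0.17 without the filter. There HERPUD1 (-0.06) went to 0.14 with the LPS library added and to 0.018 and 0.47 with control 1 or 2 replaced. It went to 0.061 with the 36 genes and the wider list among the clustering genes. CALR (-0.34) went to 0.031 with control 2 replaced. After LPS in all kept cells, ERN2 (-0.03) went to 0.034 and XBP1 (0.01) to -0.022 at the minimums of control 1, and XBP1 to -0.00247 with DESeq2, -0.00247 with other size factors and -0.010 without the filter.

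The shares of cells with a UMI rise with depth. Thinned to 3000 UMIs, XBP1 was seen in 79.1% of GCLC and 65.5% of U-HT29, CREB3L1 in 63.2% and 24.7%, and ERN2 in 3.03% of U-HT29. Without thinning, the shares were 93.9% and 81.0% for XBP1, 69.1% and 33.8% for CREB3L1, and 13.3% and 6.69% for ERN2. GCLC and EECLC rest on 49 to 93 cells per control, which limits what can be told for low genes.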
